A study of Mus musculus with 10 samples.

Results

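Cytosolic ribosomal protein genes encode the proteins of the ribosome that translates cytoplasmic mRNA. They were followed here in thymic tumours of Ikaros-mutant mice and in thymocytes. The members were the probe sets of the MG_U74Av2 array with a single gene symbol that starts with Rps or Rpl followed by a digit, or that reads Rplp0, Rplp1, Rplp2 or Rpsa. Rps6k kinases were left out, and each gene was represented by the probe set with the highest mean over the 10 arrays. This gave 35 genes, taken from 49 probe sets, of the 8251 genes with at least 1 single-symbol probe set. The 35 were 18 small-subunit and 17 large-subunit genes by symbol, paralogs included. Probe sets that list several symbols lie outside the rule, and 39 of them name a ribosomal protein gene.

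The 6 tumours were advanced thymic tumours of mice homozygous for a hypomorphic Ikaros allele, written IkL/L, and their age is not given. The 2 wild-type and 2 IkL/L thymocyte preparations were not fractionated and came from mice 3 weeks old on a C57Bl6 background. Total RNA was hybridised, 1 array per sample, and IkL/L is shared by the tumours and 1 of the thymocyte groups. The labels name a mouse for each sample but do not say that the arrays of a group came from different mice, so p-values measure only the spread between these arrays, which may in part be technical.

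Ribosomal proteins are made in equal numbers, since each ribosome takes up 1 copy of nearly all of them, and surplus free protein is degraded. Their mRNAs are among the most abundant of any growing cell and typically begin with a tract of pyrimidines, the 5′ terminal oligopyrimidine motif, through which mTOR and the RNA-binding protein Larp1 control their translation. In the thymus, demand for ribosomes is highest in the proliferating immature cells, and the RNA-binding subunit Rpl22 is required in mice for development of αβ T cells. An array of total RNA does not measure the translation of these mRNAs.

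The stretches around a listed transcription start are shown for the 4 genes whose values carry most of the results below. They come from RefSeq on GRCm38.p6, run 5′ to 3′ on the strand of the gene from 60 bases before the start to 30 bases from it on, and have the longest pyrimidine run in capitals. For Rps19 (chr7:24884616-24884705, plus strand, 1 of 3 listed starts) the run lay 45 to 33 bases before the start. For Rpl22 (chr4:152325666-152325755, plus strand, 1 of 2 listed starts) it lay 39 to 26 bases before it. In both genes the start whose window held the longest run was taken. For Rps18 (chr17:33955636-33955725, minus strand) it lay across the start, and for Rpl13a (chr7:45128716-45128805, minus strand) it began at base 3 of the transcript.
Rps19: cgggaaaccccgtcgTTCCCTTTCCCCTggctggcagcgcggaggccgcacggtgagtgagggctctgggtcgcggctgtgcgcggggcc
Rpl22: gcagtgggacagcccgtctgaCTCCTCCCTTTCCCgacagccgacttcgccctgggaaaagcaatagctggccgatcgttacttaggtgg
Rps18: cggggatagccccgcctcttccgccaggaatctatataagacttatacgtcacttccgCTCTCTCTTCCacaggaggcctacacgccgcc
Rpl13a: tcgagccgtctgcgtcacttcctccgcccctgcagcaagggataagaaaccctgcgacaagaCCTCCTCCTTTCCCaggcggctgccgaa

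RefSeq windows were at hand for 28 of the 35 members, with 37 listed starts. A run of at least 10 pyrimidines lay in 35.1% of the member windows of this length and in 17.0% of the windows of all 32851 listed starts. The letters CTTTCC on the transcribed strand, which can lie inside such a run, were in 27.0% of member windows and 4.2% of all windows. They were present in the windows of Rps19, Rpl22 and Rpl13a and not in that of Rps18. CCGGAA, the core of the sites bound by ETS factors, was found on either strand in 40.5% of member windows and 7.9% of all windows. GGGAA, the core of Ikaros sites, was found on either strand in 27.0% of member windows and 24.7% of all windows, and its reverse complement, TTCCC, can also lie inside a pyrimidine run, as it does in Rps19, Rpl22 and Rpl13a. A match describes these letters only.

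The values are the intensities the authors deposited, on a linear scale on which every array has the same trimmed mean of 300.2. A floor of 16 was set at the 20th percentile of the table, and log2 was taken. Only probe sets brighter than the array's median on 2 or more arrays entered the test, and 26 of the 35 members did. A brightness compares arrays for 1 probe set and does not rank transcripts, because probe sets differ in how strongly they bind.

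By mean intensity over the 10 arrays, 20 members lay above 1000, 4 between 100 and 1000, and 11 below 100. These limits were set after the values were seen. The 20 bright members, 10 of each subunit, had means from 1721 (Rpl13a) to 33234 (Rpl41). Rpl41, which encodes the smallest protein of the ribosome, was within the 3 brightest probe sets of every array. Rps28, Rplp0 (the base of the stalk that recruits elongation factors), Rps24 and Rps18 followed. On each array 15 to 18 of the 100 brightest probe sets, and 4 to 6 of the 20 brightest, were members.

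The middle members were Rps27 (mean 642), Rpl22 (271), the Rpl7 paralog Rpl7l1 (178) and Rps29 (130). The 11 dim members were Rps4l, Rps13, Rpl32, Rpl38, Rpl39, Rpl39l, Rps27l, Rpl35a, Rps15, Rps20 and Rps14, with means of 78.6 (Rps4l) and less. Most of these encode core subunits that every ribosome holds. A dim probe set there gives no level of the transcript. Of the 11, only Rps13 and Rpl32 were tested. The 5 dimmest members, Rps14, Rps20, Rps15, Rpl35a and Rps27l, each lay at or below the floor of 16 on at least 1 array.

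**Figure D1:**
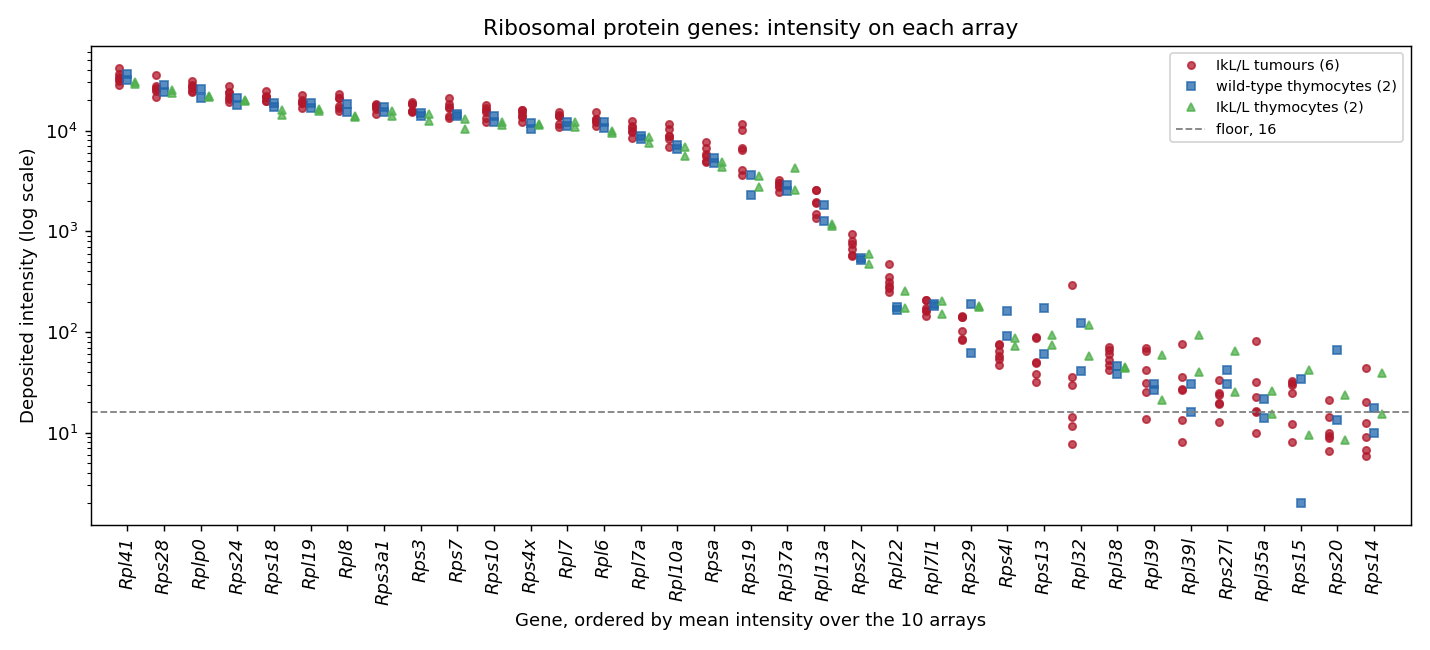
Deposited intensity (log scale) of the 35 ribosomal protein genes on the 6 IkL/L tumour arrays (red circles), 2 wild-type (blue squares) and 2 IkL/L thymocyte arrays (green triangles), with genes ordered by mean intensity and the floor of 16 dashed. Among the bright genes the tumour symbols of Rps19 spread most, from 3612 to 11478, and among all genes those of Rpl32, from 7.7 to 292.

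The probe-set names carry the manufacturer's warnings for 9 members. Rpl41 and Rps28 are marked as reading a sequence family, Rpl7 and Rps4l as shared between similar transcripts, and Rpl32, Rpl38, Rps13, Rps24 and Rps27l as designed under relaxed rules. The probe sets of Rps24 and Rpl7 are annotated to the same sequence record. Ribosomal protein genes have many processed pseudogenes and near copies, so the intensities of such probe sets can hold more than 1 transcript.

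The first comparison asked how tumours differed from wild-type thymocytes. None of the 26 tested members passed an adjusted p of 0.05 (limma over all 7172 tested probe sets, Benjamini-Hochberg adjustment), where 1.88% of all tested probe sets did, 1% as higher and 0.878% as lower. The smallest adjusted p of a member was 0.140, for Rpl22. Even so, 23 of the 26 had a positive log2 difference, against 49.6% of all tested probe sets. Their median was 0.21, and that of all tested probe sets was -0.01. Rpl22 and Rps19 had an unadjusted p under 0.05, both with the tumours higher, a direction in which 8.37% of all tested probe sets passed that limit; 7.47% did so in the other direction, and 0 members.

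Of the 26 tested members, 5 had all tumour arrays above the wild-type arrays, Rps18, Rps3, Rps4x, Rps27 and Rpl22, and 0 had them all below. Over all tested probe sets 9.16% lay wholly above and 8.76% wholly below. Rps3 forms part of the channel through which mRNA enters the small subunit, and Rps4x is the X-linked form of eS4. Among the 20 bright members all differences were positive, from 0.00 (Rpl41) to 1.16 (Rps19), with a median of 0.22 or 1.16-fold. The other 104 tested probe sets with a mean of at least 5000 had a median of -0.01. Under quantile normalization 18 of the 20 bright differences were positive, with a median of 0.08, and those of Rpl41 and Rps3a1 turned negative; with wild-type array 1 left out 16 were positive and the median was 0.11.

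The second comparison set the tumours against thymocytes of the same genotype. Again 0 of 26 members passed the adjusted limit, against 1.42% of all tested probe sets (0.906% higher and 0.516% lower), and the smallest adjusted p was 0.175, for Rps18. A positive difference was seen for 22 members, against 45.7% of all tested probe sets, with a median of 0.33 beside -0.05 over all. At an unadjusted p under 0.05 the tumours were higher for 6 members, Rps18, Rpl13a, Rps19, Rps7, Rpl10a and Rpl22, where 9.59% of all tested probe sets were; 0 members and 9.5% of all tested probe sets were lower.

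All tumour arrays lay above both IkL/L thymocyte arrays for 11 of the tested members, against 10.4% of all tested probe sets: Rplp0, Rps18, Rpl19, Rpl8, Rps3, Rps7, Rps4x, Rpl6, Rpsa, Rps19 and Rpl13a. All 11 were bright. Among the other 104 probe sets from a mean of 5000, 19.2% lay wholly above. Rps29 was the only tested member whose tumour arrays lay wholly below, against 12.1%. Of the bright members 19 had a positive difference, with a median of 0.35 or 1.27-fold. The exception was Rpl37a at -0.20. The other probe sets from 5000 had a median of 0.13. Quantile normalization left 15 of 20 positive, with a median of 0.12, and made those of Rpl41, Rps3a1, Rpl19 and Rps28 negative beside Rpl37a.

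Both comparisons use the same tumour arrays, so their signs are not separate evidence. The 95% interval of a bright member reached 0.40 to 0.98 on the log2 scale to either side of its difference, with a median of 0.45. An interval of this width does not separate a difference of the bright median from 0. The intervals against wild-type lay above 0 for 1 bright member, Rps19, and those against IkL/L thymocytes for 5, Rps18, Rps7, Rpl10a, Rps19 and Rpl13a. These intervals are not adjusted for the number of probe sets, so they repeat the unadjusted p under 0.05 given above and add no evidence. At that limit 8.37% and 9.59% of all tested probe sets were higher.

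**Figure D2:**
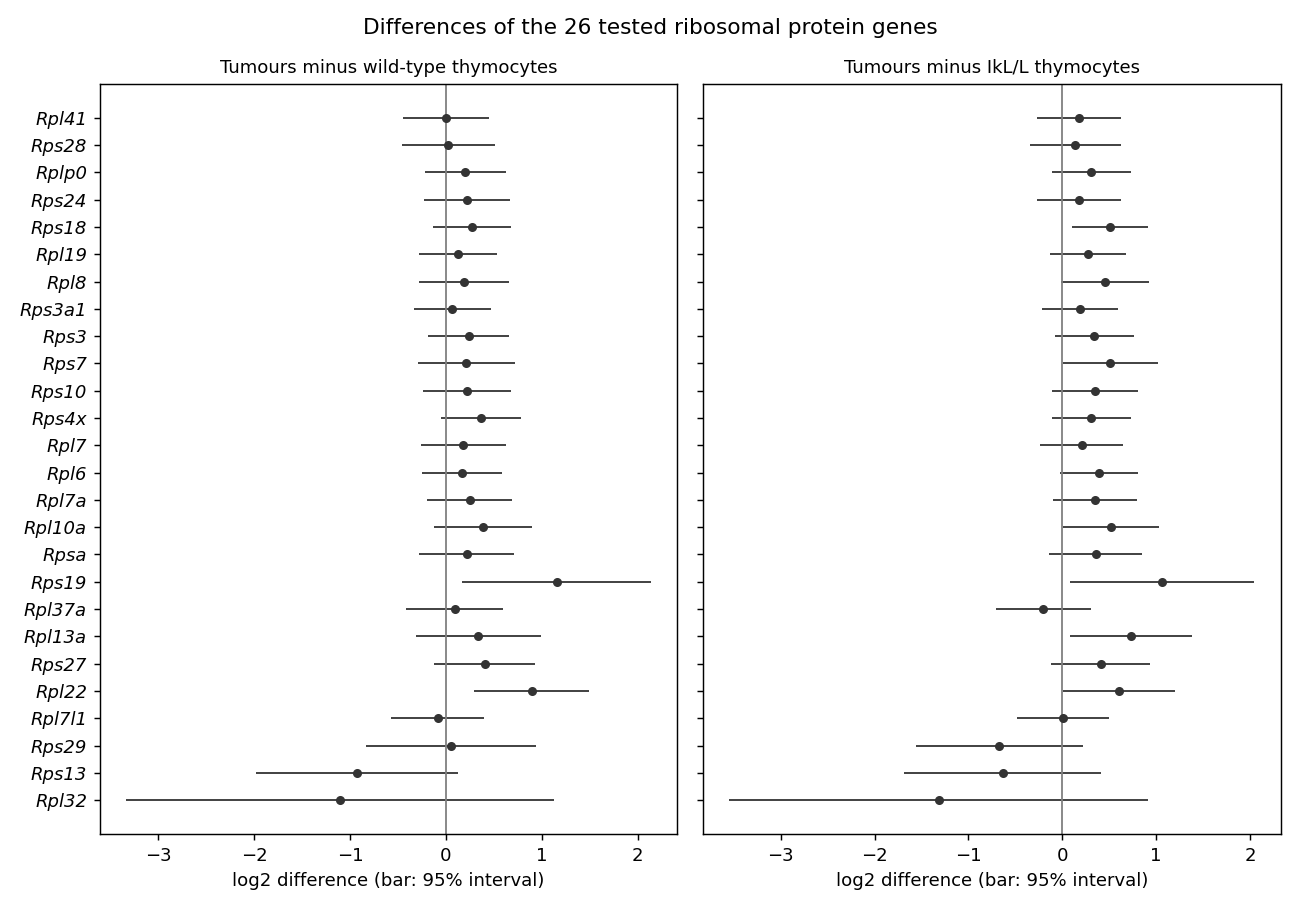
Log2 difference of each of the 26 tested members (points) with its 95% interval (bars), tumours minus wild-type thymocytes at left and tumours minus IkL/L thymocytes at right, ordered by mean intensity from the top. Most points of bright genes sit right of 0, Rps19 farthest at 1.16 and 1.06, with Rpl41 at 0.00 in the left panel and Rpl37a at -0.20 in the right, while the 2 dimmest tested genes, Rps13 and Rpl32, sit left of it with wide bars.

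The third comparison, IkL/L against wild-type thymocytes, asked whether the allele alone altered these genes. None of the 26 members passed the adjusted limit, where 0.0139% of all tested probe sets did, and 0 had an unadjusted p under 0.05, against 2.05% of all tested probe sets on the higher and 1.16% on the lower side. The lowest adjusted p of a member was 0.999. The difference was positive for 7 members and negative for 19, against 54% positive over all tested probe sets, with a median of -0.11 beside 0.03 over all tested probe sets. Both IkL/L arrays lay below both wild-type arrays for 7 of the tested members, Rpl41, Rps18, Rpl19, Rpl8, Rps7, Rpl6 and Rpl13a, and above them for 0 of the tested members, while 18.2% and 21.2% of all tested probe sets did so. Among the other probe sets from a mean of 5000, 34.6% lay wholly below and the median was -0.12, beside -0.13 for the bright members.

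With single arrays left out the median of the members ranged from -0.19, without IkL/L array 2, through -0.18 without wild-type array 1 and -0.04 without wild-type array 2, to -0.03 without IkL/L array 1. With quantile normalization it was 0.01. Among the tested members the largest negative differences were those of Rpl13a (-0.39), Rps7 (-0.30), Rps13 (-0.29), Rpl8 (-0.27) and Rps18 (-0.24), and the largest positive ones those of Rps29 (0.73), Rpl37a (0.30), Rpl22 (0.29), Rpl32 (0.21) and Rps19 (0.09).

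Of the small subunit, Rps19, the gene most often mutated in the human red-cell aplasia Diamond-Blackfan anaemia, stood farthest from the thymocytes. Its tumour intensities were 4017, 6345, 10233, 11478, 6727 and 3612 in tumours 1 to 6, those of the wild-type arrays 3635 and 2316, and those of the IkL/L arrays 2731 and 3506. Tumours 3 and 4 were the highest, tumour 6 overlapped wild-type array 1, and all tumours exceeded both IkL/L arrays. The log2 difference was 1.16 ± 0.44 (SE) against wild-type (2.23-fold, adjusted p = 0.237, limma) and 1.06 ± 0.44 against IkL/L thymocytes (2.09-fold, adjusted p = 0.236).

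Rps19 also varied most between tumours among the bright members, with an SD of log2 of 0.68. That of the other 19 ran from 0.12 to 0.39, with a median of 0.19. Other tested probe sets from a mean of 5000 had a median SD of 0.30. Tumour 6 was the only tumour on the chip lot of the thymocyte arrays, and with lot as a block the difference of Rps19 was 0.32 against wild-type and 0.22 against IkL/L thymocytes. With fluidics run as a block it was 0.82 and 0.41, and with hybridization day as a block 1.15 and 1.06. The run value against wild-type rests on tumours 4 and 6 and the single wild-type array 1. No tumour shared a run with an IkL/L array, so the run value against IkL/L thymocytes was reached only through wild-type arrays 1 and 2. The part of the lot in this result was not tested beyond the single tumour 6.

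Rps18, a protein of the small-subunit head, had the smallest adjusted p of any member against IkL/L thymocytes. Its intensities were 19637, 21379, 19483, 24752, 21521 and 22248 in the tumours, 16944 and 18636 in wild-type and 14266 and 15906 in IkL/L thymocytes. The 3 groups did not overlap, with the tumours highest and the IkL/L thymocytes lowest. The log2 difference was 0.51 ± 0.18 against IkL/L (1.42-fold, adjusted p = 0.175, limma) and 0.27 ± 0.18 against wild-type thymocytes (1.21-fold, adjusted p = 0.528). With quantile normalization these were 0.19 and 0.14.

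Rps7, which outside the ribosome binds the p53 regulator Mdm2, ran from 13222 to 21215 in the tumours with a median of 17016. The wild-type arrays read 13930 and 14612 and the IkL/L arrays 10312 and 13039. The tumours thus overlapped wild-type and lay just above IkL/L thymocytes, at 0.51 ± 0.23 (adjusted p = 0.255, limma). Rps27, a zinc-finger protein, read 565 to 935 in the tumours with a median of 707. Its wild-type arrays read 521 and 542, and its IkL/L arrays 475 and 590, which the tumours overlapped.

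Rps29, another zinc-finger protein, went the other way against IkL/L thymocytes. The tumours ran from 83.1 to 143 with a median of 121, the IkL/L arrays read 177 and 181, and the wild-type arrays 61.6 and 190. The wild-type arrays spanned all other groups. Its log2 difference was -0.67 ± 0.40 against IkL/L (adjusted p = 0.377, limma) and 0.06 ± 0.40 against wild-type thymocytes.

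Of the large subunit, Rpl22 had the smallest p against wild-type. It is dispensable for translation in general, but αβ T cells do not develop in mice without it, and its loss speeds T-cell lymphoma in mice. Its tumour intensities were 313, 288, 350, 251, 473 and 272, those of wild-type thymocytes 177 and 165, and those of IkL/L thymocytes 173 and 253. All tumours lay above the wild-type arrays, and tumour 4 lay just below IkL/L array 2.

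The log2 difference of Rpl22 was 0.89 ± 0.27 against wild-type (1.86-fold, adjusted p = 0.140, limma) and 0.60 ± 0.27 against IkL/L thymocytes (1.52-fold, adjusted p = 0.256). The single-array values do not show a tumour with less Rpl22 signal than wild-type thymocytes. A second Rpl22 probe set, too dim to be tested at a mean of 51.1, gave 0.28 and -0.85, and when both were averaged the difference from IkL/L thymocytes was -0.12. With lot as a block the bright probe set gave 0.67 and 0.38, and without IkL/L array 1 the second value was 0.33.

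Rpl13a, which in human monocytes leaves the ribosome after interferon-γ to silence inflammatory mRNAs, read 1338, 2566, 1485, 1887, 2587 and 1960 in the tumours. Wild-type thymocytes gave 1264 and 1813 and IkL/L thymocytes 1122 and 1184. Tumours 1 and 3 fell between the wild-type arrays, while both IkL/L arrays lay under every tumour. The difference was 0.73 ± 0.29 against IkL/L (1.66-fold, adjusted p = 0.223, limma) and 0.34 ± 0.29 against wild-type thymocytes (adjusted p = 0.642). The latter was 0.08 without wild-type array 1, 0.60 without wild-type array 2 and -0.10 with fluidics module as a block.

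**Figure D3:**
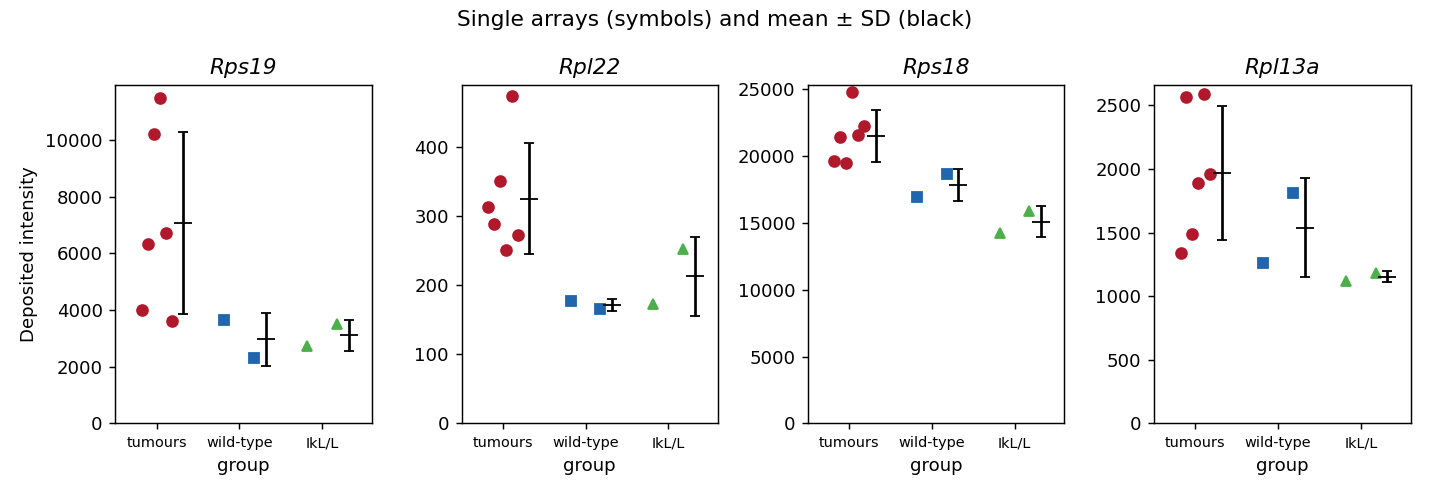
Deposited intensity (linear axis from 0) of Rps19, Rpl22, Rps18 and Rpl13a on each array by group (coloured symbols), with the group mean and SD (black; n = 6 tumours, 2 wild-type and 2 IkL/L thymocyte arrays). Tumour symbols of Rps19 spread from 3612 to 11478, and those of Rps18 stay between 19483 and 24752, above both thymocyte groups.

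Rpl10a was read by 2 bright probe sets. In the brighter one the tumours ran from 6792 to 11516 with a median of 8768, against 7105 and 6573 in wild-type and 5589 and 6910 in IkL/L thymocytes, and tumour 6 lay among the thymocyte arrays. Its differences were 0.39 ± 0.23 against wild-type and 0.52 ± 0.23 against IkL/L thymocytes (adjusted p = 0.471 and 0.255, limma). The second probe set, marked as reading a family, gave 0.64 and 0.61 (adjusted p = 0.144 and 0.138).

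Rpl41 differed by 0.00 ± 0.20 from wild-type and 0.18 ± 0.20 from IkL/L thymocytes. Its intensities ran from 28511 to 42046 in the tumours, against 31476 and 36302 in wild-type thymocytes, and overlapped them. The stalk protein Rplp0 differed by 0.20 and 0.31, Rpsa, also known as the laminin receptor precursor, by 0.22 and 0.36, and Rpl8, which lines the peptidyl transferase centre, by 0.19 and 0.45. By subunit, the bright members had a median difference from wild-type of 0.22 for the small and 0.19 for the large subunit, and from IkL/L thymocytes of 0.35 and 0.33.

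The 2 dim members that were tested did not pass in any comparison. Rpl32 differed by -1.10 from wild-type and by -1.32 from IkL/L thymocytes (adjusted p = 0.659 and 0.474, limma), and Rps13 by -0.92 ± 0.47 and -0.64 ± 0.47 (adjusted p = 0.389 and 0.463). Rpl32 read 7.7 to 35.7 in 5 tumours and 292 in tumour 6, and 3 tumours lay at the floor. The SD of log2 over the tumours was largest for Rpl32 (1.63), Rpl35a (0.91), Rpl39l (0.83) and Rpl39 (0.82), all dim, and then for Rps19.

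The untested paralogs were close to the floor. Rpl39l, a paralog of Rpl39 known from mouse male germ cells, read 8.1 to 75.3 in the tumours, 30.1 and 16.2 in wild-type and 40.2 and 92.3 in IkL/L thymocytes. Rps27l, a p53-induced paralog of Rps27, read 12.8 to 33.0 in the tumours, 41.5 and 30.3 in wild-type and 25.1 and 64.5 in IkL/L thymocytes. Groups of both overlapped for tumours against either control. Of the other paralogs, Rps4l read 47.0 to 75.7 in the tumours and 90.5 and 161 in wild-type thymocytes. Its IkL/L arrays read 73.3 and 87.5, which the tumours overlapped. Over all tested probe sets 8.76% lay wholly below wild-type. The Rps4l difference from wild-type was -0.97, and a second untested probe set of the gene gave 0.28. Rpl7l1 differed by -0.09 from wild-type and by 0.01 from IkL/L thymocytes.

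Of the members, 10 had more than 1 single-symbol probe set, 14 further probe sets in all, of which 11 had a mean below 100. Of 3 Rps28 probe sets the 2 brightest, with means of 26269 and 18110, differed from wild-type by 0.03 and 0.04, and the third, at 253, by -0.56. The 39 probe sets of several symbols that name a ribosomal protein gene were not counted as members. Of them 36 were tested and 0 passed the adjusted limit, with medians of 0.23 and 0.28 against wild-type and IkL/L thymocytes (limma).

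Array by array, the members held 4.98% to 5.87% of the summed intensity of all probe sets in the tumours, a mean of 5.51% ± 0.35 (SD, n = 6). The share was 4.66% and 5.09% in wild-type and 4.42% and 4.75% in IkL/L thymocytes. Tumour 1, at 4.98%, was the only tumour below wild-type array 2. The median difference of the 20 bright members from the mean of the 4 thymocyte arrays was 0.06, 0.34, 0.16, 0.44, 0.31 and 0.29 in tumours 1 to 6, -0.01 and 0.14 in the wild-type and -0.13 and 0.00 in the IkL/L arrays.

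Tumour 4 was thus the highest and tumour 1 the lowest tumour, and wild-type array 2 came close to tumour 3. Of the 20 bright members 16, 20, 14, 19, 20 and 19 lay above the thymocyte mean in tumours 1 to 6, 7 and 17 in the wild-type arrays and 2 and 10 in the IkL/L arrays.

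**Figure D4:**
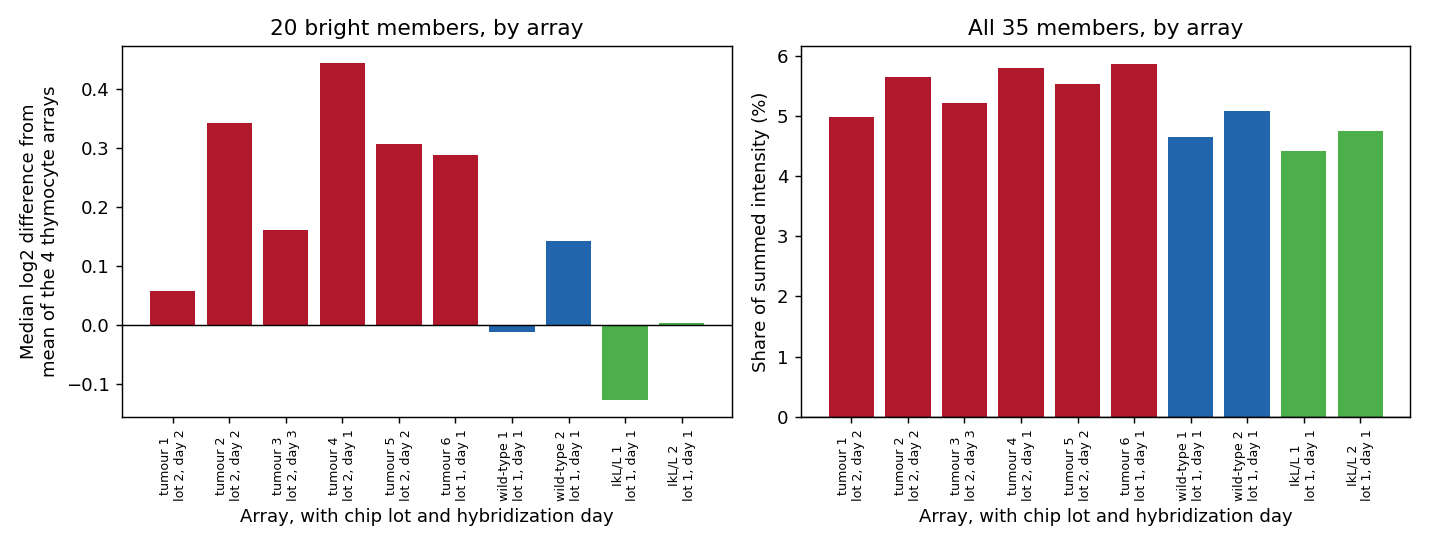
Left, median log2 difference of the 20 bright members on each array from the mean of the 4 thymocyte arrays; right, share of summed intensity (%) held by all 35 members; bars are single arrays, labelled with chip lot and hybridization day. All tumours are above 0 at left, from 0.06 to 0.44, and wild-type array 2, at 0.14, lies above tumour 1.

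Within the arrays the bright members varied together. Over the deviations of the 10 arrays from their group means, the 190 pairs of bright members had a median Pearson correlation of 0.47, and 88.4% were positive. For the other 104 probe sets from a mean of 5000 the median was 0.10. These values are descriptions, since all genes of an array share its RNA and scale. Rps4x (0.60), Rps18 (0.60) and Rpl6 (0.57) had the highest mean correlation with the other bright members, and Rps19 (0.11) and Rps28 (0.22) the lowest.

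**Figure D5:**
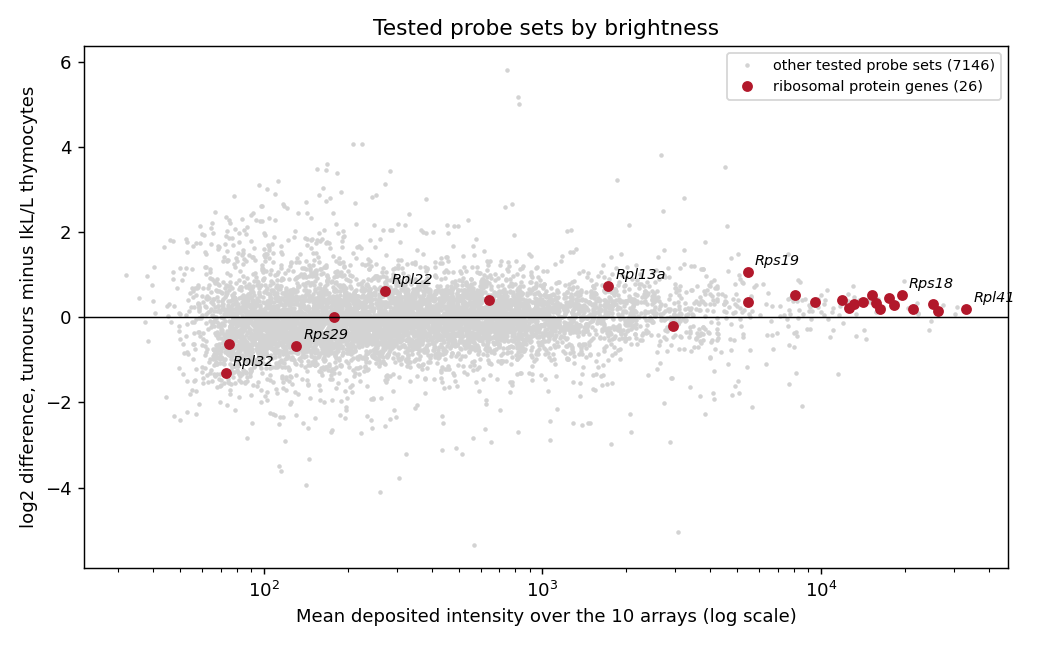
Log2 difference, tumours minus IkL/L thymocytes, of the 7172 tested probe sets against mean intensity over the 10 arrays (log scale), with the 26 tested members in red. At high intensity the members form a band slightly above 0, from 0.14 for Rps28 to 1.06 for Rps19 with Rpl37a at -0.20, inside the scatter of the other probe sets.

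Treating the 4 thymocyte arrays as 1 group, a pooling that takes the genotypes as alike, gave 0 of 26 members past the adjusted limit while 7.5% of all tested probe sets passed it. Rpl22 came nearest, with a log2 difference of 0.75 (adjusted p = 0.053, limma), followed by Rps19 with 1.11 (adjusted p = 0.0683). The unadjusted p was under 0.05 for these and for Rpl10a, Rps4x, Rpl13a, Rps27 and Rps18, 7 in all, all on the higher side, where 12.6% of all tested probe sets were; 11.8% were so on the lower side.

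Genes that work with the ribosomal proteins were read from lists chosen with earlier results of these arrays known. Among 18 measured ribosome assembly genes 17 were tested and 15 had positive differences in each tumour comparison, with medians of 0.85 against wild-type and 0.95 against IkL/L thymocytes. Against wild-type 0 passed the adjusted limit and 11 had an unadjusted p under 0.05 (limma), all on the higher side, where 8.37% of all tested probe sets were. Against IkL/L thymocytes 12 did, all higher, beside 9.59% of all tested probe sets. There 1 passed the adjusted limit and rose, Nhp2, a protein of the snoRNPs that guide pseudouridylation of rRNA, by 1.47 ± 0.29 (adjusted p = 0.0404, limma).

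Nhp2 had mean intensities of 2519 ± 807 (SD, n = 6) in tumours, 1142 ± 72.3 (n = 2) in wild-type and 874 ± 62.8 (n = 2) in IkL/L thymocytes. The call was lost without any 1 of 8 of the 10 arrays (adjusted p = 0.0599 to 0.289, limma) and held without tumour 4 or tumour 6. It was also lost with lot as a block, where the difference was 0.89 (adjusted p = 0.425, limma), and with run as a block, where it was 1.68 (adjusted p = 0.821, limma) and 0 of 7172 probe sets passed. That run value was reached only through wild-type arrays 1 and 2, since no tumour shared a run with an IkL/L array. The Nhp2 call was lost as well with day as a block (adjusted p = 0.141, limma) and with module as a block (adjusted p = 0.123, limma). Without a low-value filter its adjusted p was 0.0741 (limma). It held with quantile normalization, median centring, the mean of probe sets, the pseudocount, the strict filter, the trended prior and pooled thymocytes. Rrs1, a factor of large-subunit assembly, differed by 1.38 and Rrp1b by 1.17 from IkL/L thymocytes without passing (adjusted p = 0.0526 and 0.0893, limma). The assembly genes' medians exceed those of the subunit genes they serve, 0.21 and 0.33, a difference between lists that was not tested.

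Of 62 measured mitochondrial ribosomal protein genes, whose products serve the separate ribosome of the organelle, 57 were tested, 0 passed in any comparison, and 48 had a positive difference in each tumour comparison, with medians of 0.26 and 0.37. At an unadjusted p under 0.05 were 7 against wild-type, 5 higher and 2 lower, and 10 against IkL/L thymocytes, all higher, where 8.37% and 9.59% of all tested probe sets were higher. Of 41 genes with symbols that start with Eif1 to Eif6, most of them initiation factors, 36 were tested, 0 passed, and 29 were positive, with medians of 0.35 and 0.22. Taken by symbol, that list also holds Eif2ak1 to Eif2ak4, Eif4ebp1, Eif4ebp2 and Eif4enif1, which are not initiation factors. Eif4ebp1 and Eif4ebp2 are counted again in the mTOR list below. Of 14 elongation factors and other genes with oligopyrimidine mRNAs 11 were tested, 0 passed and 11 were positive, with medians of 0.34 and 0.38.

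In that last list Npm1, a nucleolar chaperone of assembly, differed by 0.62 and 0.75 (adjusted p = 0.318 and 0.194, limma), and Eef1a1, which carries aminoacyl-tRNA to the ribosome, by 0.02 and 0.24. Of 11 genes of the mTOR and S6 kinase pathway 9 were tested, 0 passed, and 2 and 4 had a positive difference. Eif4ebp1, the repressor of cap-dependent initiation that mTOR inactivates, differed by 1.30 from wild-type (adjusted p = 0.120) and Larp1 by 0.52 (adjusted p = 0.305). All 4 tested genes of the p53 pathway, which free ribosomal proteins can activate through Mdm2, were short of the limit. In IkL/L against wild-type thymocytes 0 genes of these 6 lists passed.

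The tissue labels were read against marker genes. Of 11 thymocyte markers 2 fell in the tumours in both comparisons, Rag1 and Rag2, which rearrange the antigen receptor genes. At an unadjusted p under 0.05 (limma) 6 of the 11 were lower and 1 was higher in each comparison. Over all tested probe sets 7.47% and 9.5% were lower and 8.37% and 9.59% higher at that limit. A positive difference was seen for 1 marker against wild-type and for 2 against IkL/L thymocytes. The summed intensity of the 11 was 29187 to 45506 in the tumours, 63121 to 70296 in wild-type and 59889 to 66203 in IkL/L thymocytes. The sum follows its brightest genes, with Cd8b1 at a mean of 15405 in wild-type thymocytes and 4607 in tumours. Cd4, Cd8a and Cd8b1 differed by -2.74, -2.11 and -2.25 from wild-type and by -2.44, -1.79 and -2.09 from IkL/L thymocytes. Cd3d, Cd3e and Cd3g differed by -0.02, -0.24 and -0.16 and by 0.21, -0.39 and -0.23. None of these passed the adjusted limit, but Cd4 against wild-type lay almost at it (adjusted p = 0.05001, limma). Of 8 tested macrophage markers 4 rose against wild-type and 5 against IkL/L thymocytes, and the sum was 8326 to 18226 in tumours against 2823 to 3391 over the thymocyte arrays. All 4 tested markers of thymic epithelium fell against wild-type and 2 against IkL/L thymocytes, with sums of 358 to 896, 3663 to 5261 and 1397 to 5260.

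Of 7 tested genes of stroma and endothelium 2 rose against wild-type, Fn1 and Mgp, and 0 against IkL/L thymocytes, with sums of 1312 to 2575 in tumours, 934 to 1446 in wild-type and 1430 to 1977 in IkL/L thymocytes. Of 4 B-cell and 2 erythroid markers 0 passed. With lot as a block, a fit that rests on tumour 6 alone, 0 of these marker calls held in either comparison. Of all 7172 tested probe sets 33 passed there against wild-type and 17 against IkL/L thymocytes. With run as a block 0 of 7172 passed against IkL/L thymocytes, so the loss of the marker calls there was fixed in advance. Against wild-type 9 passed with run as a block, and 2 of the 4 epithelial calls held. Without wild-type array 1 none of the marker calls against wild-type held, and without IkL/L array 2 none of those against IkL/L thymocytes did. The part of this cell makeup in the ribosomal protein values was not tested. In bulk RNA, fewer cells of a type and less RNA per cell cannot be told apart. The ratio of 3′ to 5′ control signals ran from 0.92 to 1.21 for Gapdh and 1.53 to 2.94 for actin, with tumour 6 highest in both.

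Of the 6 tumours, 5 were hybridised on another chip lot than the thymocytes, and 4 of them on other days. Tumours 4 and 6 shared the day of the thymocyte arrays. On that day alone the median of the members was 0.28 against wild-type and 0.37 against IkL/L thymocytes, and within the shared lot, with tumour 6 alone, 0.32 and 0.35. With fluidics module as a block the median against wild-type was 0.03, and 13 of 20 bright members stayed positive. Both wild-type arrays were on module 2, shared only with tumours 1 and 3, so this fit against wild-type rests on those tumours. Their bright members had the lowest median differences from the thymocyte mean among the tumours, 0.06 and 0.16. With fluidics run as a block the median of the members was 0.42 and 0.56. Against wild-type this rests on tumours 4 and 6 and wild-type array 1. No tumour shared a run with an IkL/L array, so the value against IkL/L thymocytes was reached only through wild-type arrays 1 and 2. No member passed the adjusted limit in any of these fits.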

How the data were processed

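All 10 MG_U74Av2 arrays were read from the table of intensities that the authors deposited; the software and scaling behind these intensities are not given in the sources used here. Every array had the same trimmed mean, 300.2 without the top and bottom 2% of its values, so no further scaling was made. The platform annotation gives 1 gene symbol to 10855 of the 12488 probe sets, several to 396 and no symbol to 1237; 66 are controls. All 35 members matched the RefSeq gene table (GRCm38.p6) with unchanged symbols. The members, lists, motifs and tests were chosen with earlier results of these data known.

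Values were floored at 16 and log2 was taken. limma 3.58.1 in R 4.3.3 fitted 1 mean per group over all 10 arrays (7 residual and 3.17 prior degrees of freedom), with Benjamini-Hochberg adjustment over 7172 tested probe sets. Folds are 2 to the power of the log2 difference, and intervals use the moderated standard error. The number of arrays limits precision. Members named singly were those with the 5 largest differences in each direction and comparison, the 5 brightest, the 5 dimmest, the 5 with the largest tumour SD, those with discordant probe sets, and a short list read in any case; from context lists up to 4 genes with the smallest p were eligible. Chip lot, day and fluidics module came from the scanner records per the file headers, and hybridizations within 10 minutes were taken as 1 run. Tumours 1 to 5 were on lot 2 and the other arrays on lot 1. Day 1 held tumours 4 and 6 and all thymocyte arrays. No 2 arrays were identical. The fit was tested on simulated data. Alternatives were quantile normalization, centring on the median, the mean of a gene's probe sets, a pseudocount of 16, other filters, a trended prior, batch blocks, single batches, pooled thymocytes and leaving out each array.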

Additional observations from a re-analysis of the deposited data

Results flagged for a closer look

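Of 28 sets of tumour values checked for an array far from the others, 1 stood out, and chance flags about 1 in 20 such groups. The intensity of Rpl32 was 292.2 in tumour 6, and the nearest of the other tumours read 35.7. The gap was 0.90 of the whole range of the 6 tumours, beyond Dixon's 95% limit for 6 samples. Tumour 6 also had the highest ratios of 3′ to 5′ control signals, 1.21 for Gapdh and 2.94 for actin, and their part in this value was not tested.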

How the results depend on the processing

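No member was called in any comparison under any alternative that gave a test: 10 fits that left out 1 array and 18 others against wild-type, 10 and 17 against IkL/L thymocytes, and 10 and 12 between the thymocyte groups. These counts include bright members alone and the members with probe sets of several symbols added. Both reuse the main fit, so their 0 was fixed by that fit. The fit with pooled thymocytes is the same in both tumour comparisons, and some of the other fits left 1 array in a group. The median log2 difference of the members from wild-type was 0.21 and became 0.074 with quantile normalization, 0.035 with fluidics module as a block and in module 2 alone, and 0.42 with run as a block and in run 1 alone. The module fits against wild-type rest on tumours 1 and 3, and the run fits on tumours 4 and 6 and wild-type array 1. With single arrays left out the median ranged from 0.107 (without wild-type array 1) to 0.300. Against IkL/L thymocytes the median of 0.33 became 0.108 with quantile normalization and 0.56 with run as a block, and ranged from 0.254 to 0.349 without single arrays. Between the thymocyte groups it was -0.11, became -0.28 with module as a block, and ranged from -0.191 to -0.026; quantile normalization put it at 0.009, within 1 SD (0.134) of a member median between arrays of a group. The thymocyte groups shared no module, so the module value between them was reached only through the tumours on modules 1, 2 and 4. The cause of these moves was not tested. The other alternatives moved the median by less than that SD, and 4 kinds of them, single runs, single modules, probe sets of several symbols and bright members alone, were chosen after seeing the data. In module 1 alone no test was possible for lack of residual degrees of freedom. Tumours and IkL/L thymocytes never shared a run, so the run fit between them goes only through wild-type arrays 1 and 2. Lot and day could not be fitted between the thymocyte groups, which share both. Over all tested probe sets 135 calls against wild-type became 14 without wild-type array 1, 29 without wild-type array 2 and 221 without tumour 6, and 102 against IkL/L thymocytes became 7 and 23 without IkL/L arrays 1 and 2 and 332 without tumour 6. Without a low-value filter they were 77 and 86, with the strict filter 120 and 155, with quantile normalization 148 and 167, with a trended prior 181 and 214, with lot as a block 33 and 17, with day 52 and 42, with module 49 and 21, with run 9 and 0, and with pooled thymocytes 538. No paired analysis was possible because the numbering of replicates is by deposition order and pairs no samples.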
